A study of Eriocheir sinensis with 6 samples.

Results

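Open chromatin regions that lay between genes, more than 2 kb and up to 20 kb from the nearest transcription start site (TSS), were examined in the muscle of Chinese mitten crabs (Eriocheir sinensis). The overlapping ATAC-seq peaks of 3 crabs were merged into 85139 regions, of which 27373 carried a peak in all 3 libraries. A region was kept when it carried a peak in all 3 libraries, overlapped no gene model, had its nearest TSS within that range of its edge, and had a mean fold enrichment under 10. Only the placed sequences, which carry CM names, were counted, and CM024137.1 only below 18 Mb. These conditions were met by 3501 regions, 4.11% of all merged regions and 12.8% of the shared ones. They are called shared near regions here. Peak calls, fold enrichment and distance chose them and are given as a description, whereas the expression of the nearest gene was not used in the choice.

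Transcription factors bind DNA at promoters, beside the TSS, and at distal elements such as enhancers, silencers and insulators, which can lie far from the gene they act on. When such a site is in use, nucleosomes are displaced and the DNA becomes accessible. ATAC-seq reads this out with the Tn5 transposase, which cuts and tags accessible DNA. An open intergenic region is therefore a candidate distal element, but openness alone does not say whether it activates or represses, and the nearest gene need not be its target. A promoter missing from the annotation, or the end of an incomplete gene model, would also be listed as intergenic.

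The muscle, from walking legs where the methods name the source, came from 3 healthy, untreated juvenile crabs of wild-type genotype at inter-molt, the phase of rest between molts. Each crab gave 1 RNA-seq library and 1 ATAC-seq library, made from parts of the same muscle sample. There was no other stage, treatment or control, so the comparisons are among regions and among genes, with the 3 crabs as replicates. The gene models carry no names in the files, so that the muscle label could not be checked against marker genes and the products of most genes below are not given.

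The ATAC libraries had 49574 to 57320 peaks, and the RNA libraries had 6772294 to 7920094 reads assigned to genes. Expression is given as FPKM, the fragments per length of gene model and size of library, as the authors scaled it. The library size behind these values was 0.491 times the assigned reads for crab 3, whereas the factor was 1.04 for crab 1 and 1.27 for crab 2. At these depths 3 reads on a gene model of 1 kb amounted to 0.427, 0.319 and 0.772 FPKM in crabs 1, 2 and 3. Medians below these values rest on few reads, and the share of genes at 1 FPKM or more is therefore given beside them. With 3 crabs, an exact sign-flip permutation test over the crabs cannot give a two-sided p below 0.25, so no comparison below can pass a threshold of 0.05. The p-values of this test reflect only the direction of the difference in each animal and, where directions differed, also its size. The SD gives the spread between the crabs. Except where the regions of each crab's own library were used, the same regions and genes were compared in every crab. Agreement among crabs is then not an independent repeat of the link between regions and genes.

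Shared near regions were narrow and of moderate strength. Their width had a median of 611 bases, with the middle 50% between 434 and 885 bases and extremes of 200 and 2959 bases. The mean fold enrichment over the local background had a median of 4.32 and ran from 1.59 to 9.99. It was under 5 in 2334 regions (66.7%), under 3 in 337 regions (9.63%) and under 2 in 5 regions. The distance to the nearest TSS had a median of 8614 bases. Shared promoter regions under the same fold limit, those within 2 kb of a TSS, were wider, with a median of 747 bases over 5365 regions. Shared regions inside genes and intergenic regions farther than 20 kb were as narrow as the near ones, at medians of 614 and 611 bases. A single summit in every library was found in 47.1% of the near regions, against 31.4% of the promoter regions, 49.1% of those inside genes and 50.6% of the far ones. In shape the near regions thus lay close to the other shared regions outside promoters.

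The limits of the choice cut through continuous distributions. Just inside the fold limit lay 640738 to 641512 on CM024112.1, with fold enrichments of 10.7, 7.43 and 11.8 in crabs 1, 2 and 3 and a mean of 9.99, and 4898799 to 4899518 on CM024161.1, with a mean of 9.98. Just outside lay 19197087 to 19197615 on CM024096.1, with a mean of 10.1, and 3024165 to 3024960 on CM024114.1, with a mean of 10.2. In all, 112 shared regions at the same distances were left out for a mean of 10 or more. The closest region kept began 2002 bases from its TSS and the closest one left out 1997 bases, and the farthest kept lay at 19997 bases against 20016 bases for the next one left out.

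Among the crabs, the summits of most regions lay close together, which the merging of overlapping peaks favours. The summits of the 3 libraries lay within 50 bases of each other in 1588 regions (45.4%) and within 100 bases in 2239 (64.0%). Their range had a median of 60 bases and a 95th percentile of 534 bases. Median fold enrichment was 4.08, 3.94 and 4.68 in crabs 1, 2 and 3, and crab 3 gave the highest value of the 3 in 2051 regions (58.6%). Crab 3 was also highest in 74.6% of the shared promoter regions and in 55.1% of the far ones. The median −log10 q, the strength of the peak call, was 10.4, 7.74 and 14.1 in crabs 1, 2 and 3. Depth of the ATAC libraries is not given in the files, and its part in this order was not tested. Across the 3501 regions, Spearman rho of fold enrichment was 0.658 for crab 1 with crab 2, 0.643 for crab 1 with crab 3, and 0.592 for crab 2 with crab 3, values that share the peak calling and the local sequence.

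The ratio of the highest to the lowest fold enrichment among crabs had a median of 1.44 and reached 2 in 359 regions (10.3%), against 11.0% of all 16983 shared regions under the fold limit. The widest ratio, 4.06, belonged to 8301956 to 8302329 on CM024128.1, which had fold enrichments of 5.37, 8.66 and 2.13 in crabs 1, 2 and 3. It lay 3916 bases upstream of evm.TU.CM024128.1.257, which had 3.45, 2.72 and 1.04 FPKM. In the next 3 regions crab 3 was highest. The region 8013054 to 8014016 on CM024120.1 had 2.68, 6.34 and 10.5, and its nearest gene evm.TU.CM024120.1.281 had 12.5, 7.72 and 9.35 FPKM. The region 16680147 to 16681081 on CM024158.1 had 3.65, 2.70 and 10.3, beside a gene without a read in any library. The region 21577638 to 21578193 on CM024146.1 had 4.03, 2.48 and 8.81, beside evm.TU.CM024146.1.625 with 3.47, 2.00 and 1.71 FPKM. None of the genes nearest to these 4 regions had its highest level in the crab in which the region was strongest.

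Not every near region was shared. Under the same distance and fold limits 13681 regions were open in at least 1 library, of which 7236 were open in 1, 2944 in 2 and 3501 in 3 libraries. Of the near regions open in crab 1, 42.0% were shared, of those in crab 2, 52.3%, and of those in crab 3, 40.7%. The same 3501 shared regions are counted in each crab, so this share is by construction largest where near regions were fewest, in crab 2.

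The gene-free sequence within these distances came to 233 Mb, which makes 15.0 shared near regions per Mb. Most shared near regions lay upstream of their gene, 2468 (70.5%), and 1033 (29.5%) lay downstream, where upstream sequence made up 67.8% of the space. Per Mb there were 15.6 upstream and 13.8 downstream. The density was 16.7 per Mb at 2 to 5 kb from the TSS, 15.9 at 5 to 10 kb and 13.6 at 10 to 20 kb. This gradient lay upstream, with 17.6, 16.8 and 13.5 per Mb in the same order of distance, whereas downstream the density was 13.7, 14.0 and 13.7. Regions open in 1 library only were denser downstream than upstream, at 33.1 and 30.1 per Mb, and were also less dense at 10 to 20 kb on either side.

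**Figure D1:**
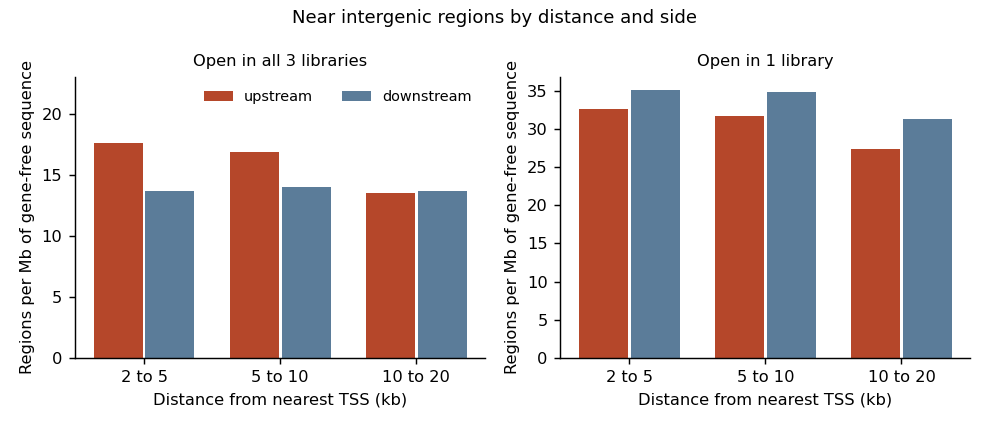
Number of near intergenic regions per Mb of gene-free sequence (vertical axes, starting at 0 and scaled separately) by distance from the nearest TSS in kb (horizontal axes), upstream and downstream of the gene. The left plot holds the 3501 regions open in all 3 libraries, which were denser upstream at 2 to 10 kb (17.6 and 16.8 per Mb, against 13.7 and 14.0 downstream), and the right plot holds the 7236 regions open in 1 library, which were denser downstream at every distance.

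Taken per crab, over all near regions open in that library, the upstream density exceeded the downstream density 1.03-fold in crab 1, 1.04-fold in crab 2 and 1.08-fold in crab 3. The density at 2 to 5 kb exceeded that at 10 to 20 kb 1.20-fold, 1.14-fold and 1.24-fold. Both ratios were above 1 in 3 of 3 crabs (exact sign-flip permutation test on the log2 ratios, two-sided p = 0.25 each). The first is a small difference, on average 0.07 on the log2 scale, and came to 0.04 when crab 3 was left out. The second was 0.25 on the log2 scale and came to 0.12 when distances were taken from the centre of a region, which moves wide regions outward.

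Intervals between 2 genes that face away from each other, and so have a start on either side, held 16.7 shared near regions per Mb. Intervals between genes in the same orientation held 14.4 per Mb, and those between genes that face each other held 13.3 per Mb. For regions open in 1 library the order was turned, with 30.0, 30.8 and 33.4 per Mb for the same kinds of interval. Beyond the outermost gene of a sequence lay 43 shared near regions in 1.15 Mb.

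The nearest gene body belonged to the gene of the nearest TSS in 3156 regions (90.1%). For the other regions the end of a neighbouring gene was closer than the start that defined their gene. The distance to any gene body had a median of 6853 bases, and 262 regions (7.48%) lay within 2 kb of one. The downstream regions lay a median of 6139 bases past the end of their gene, and 182 of them (17.6%) lay within 2 kb of that end.

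All 72 placed sequences held shared near regions. Their density ran from 5.52 per Mb on CM024151.1 to 33.3 per Mb on CM024130.1, around a median of 14.6. The gap to the next shared near region on the same sequence had a median of 90438 bases, and 681 gaps (19.9%) were at most 5 kb. The choice of regions confines them to gene-free stretches near genes. The share of short gaps that this space alone would give was not computed, so the gaps do not show whether the regions were grouped.

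The 3501 regions had 2518 different nearest genes, 9.26% of the 27188 genes on the counted sequences. To set these genes against a fair counterpart, a gene was called eligible when at least 1 kb of gene-free sequence at these distances had its TSS as the nearest. There were 15333 eligible genes without a shared near region, and 5 of the 2518 nearest genes had less than 1 kb of such sequence. Genes without a region are thus those that could have had one.

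Genes nearest to a shared near region were expressed more often than eligible genes without one. At 1 FPKM or more were 47.1%, 48.1% and 44.0% of the nearest genes in crabs 1, 2 and 3, against 38.4%, 39.3% and 35.1% of the eligible genes. The difference was 8.81 ± 0.10 percentage points (SD, n = 3 crabs) and had the same direction in 3 of 3 crabs (exact sign-flip permutation test, two-sided p = 0.25). In all 3 crabs at once, 966 nearest genes (38.4%) reached 1 FPKM, against 4500 eligible genes (29.3%) and a background of 30.6% over both groups. Over all genes on the counted sequences the background was 34.1%. No read in any library was found for 703 nearest genes (27.9%), against 4964 eligible genes (32.4%) and a background of 31.7%. Over all genes on the counted sequences this share was 27.6%, close to that of the nearest genes. A large part of the nearest genes thus had no detected or low expression beside a region open in each crab.

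The median level was 0.767, 0.821 and 0.545 FPKM for the nearest genes in crabs 1, 2 and 3, and 0.288, 0.328 and 0.171 FPKM for the eligible genes. On the scale of log2(FPKM + 1), on which changes of low genes are understated, the medians differed by 0.44 ± 0.03 (SD, n = 3 crabs, higher in 3 of 3 crabs, exact sign-flip permutation test, two-sided p = 0.25). The difference came to 0.27 when crab 3 was left out and the regions were chosen on the other 2 libraries. It came to 0.26 when the expression of each crab was set against all near regions of its own library, shared or not. That is a wider set, with 5053 nearest genes in crab 1. Genes with much gene-free sequence around them were expressed less in either group. In genes with under 5 kb of it, the mean over crabs of the median level was 3.03 FPKM for 191 nearest genes and 1.09 FPKM for 4731 eligible ones. In genes with 18 kb or more it was 0.175 FPKM for 1429 nearest genes and 0 for 5581 eligible ones. Within 4 such classes the log2 difference averaged 0.77 ± 0.06 (SD, n = 3 crabs, exact sign-flip permutation test, two-sided p = 0.25), a comparison added after the data had been seen.

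Expression of the nearest gene went with the number of libraries in which its best near region was open. The share of genes at 1 FPKM or more in all 3 crabs was 28.4% of 10918 eligible genes without any near region, 30.4% of 2906 genes whose best region was open in 1 library, 34.0% of 1538 genes with one open in 2 libraries, and 38.4% of the 2518 genes with a shared one. The genes of regions open in 1 library had medians of 0.289, 0.319 and 0.142 FPKM in crabs 1, 2 and 3, close to those of genes with no near region, at 0.263, 0.320 and 0.169 FPKM. These 2 groups were not matched for gene-free sequence. Its median was 18 kb for genes with a region in 1, 2 or 3 libraries and 7.85 kb for genes with none. The part of this imbalance in the comparison with genes without a near region was not tested. Genes of shared regions lay above genes of regions open in 1 library by 0.45 ± 0.01 on the log2(FPKM + 1) scale (SD, n = 3 crabs, higher in 3 of 3 crabs, exact sign-flip permutation test, two-sided p = 0.25), or by 0.23 without crab 3.

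**Figure D2:**
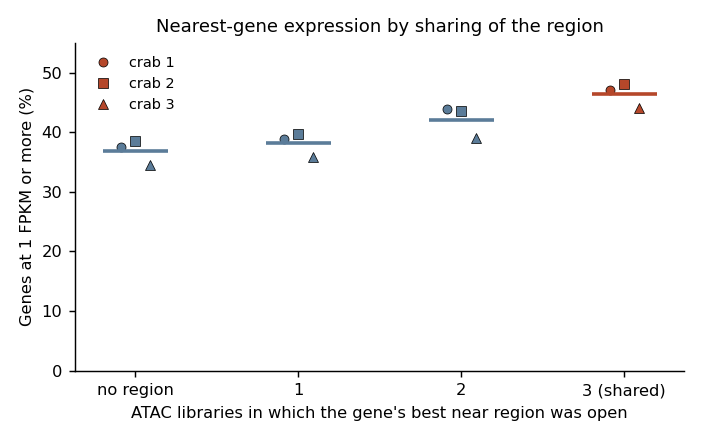
Percentage of genes at 1 FPKM or more (vertical axis, from 0) by the number of ATAC libraries in which the gene's best near intergenic region was open (horizontal axis). Points are crabs 1 to 3 and bars their means, and the shared regions at the right (47.1%, 48.1% and 44.0%) lie above the other groups in each crab.

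Open promoters were also more frequent at these genes. A promoter peak, one within 2 kb of the TSS, was present in 43.9%, 37.6% and 43.4% of the nearest genes in crabs 1, 2 and 3, against 29.6%, 24.9% and 31.9% of the eligible genes. The difference of 12.9 ± 1.39 percentage points (SD, n = 3 crabs) was seen in 3 of 3 crabs (exact sign-flip permutation test, two-sided p = 0.25). A promoter peak in all 3 libraries was found at 749 nearest genes (29.7%), against 2971 eligible genes (19.4%), over a background of 20.8%. No promoter peak in any library was found at 1150 nearest genes (45.7%), against 9274 eligible genes (60.5%).

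The comparison of expression was therefore repeated at genes with the same promoter state. At genes without a promoter peak, 37.4%, 39.2% and 33.7% of those nearest to a shared region reached 1 FPKM in crabs 1, 2 and 3, against 24.9%, 26.4% and 23.1% of the eligible ones. This difference was 12.0 ± 1.15 percentage points (SD, n = 3 crabs, higher in 3 of 3 crabs, exact sign-flip permutation test, two-sided p = 0.25). It came to 6.96 when near regions, shared or not, and promoter peaks were taken from the same crab as the expression. Where the promoter was open in all 3 libraries the shares were 64.0%, 63.3% and 59.7% for those nearest to a shared region, against 69.5%, 69.6% and 62.7% for the eligible ones. Here the difference was −5.0 ± 1.7 percentage points (SD, n = 3 crabs, lower in 3 of 3 crabs, exact sign-flip permutation test, two-sided p = 0.25), and came to −8.38 without crab 3, to −2.96 without crab 2 and to −2.42 with the EVM gene models alone. With near regions, shared or not, promoter peaks and expression of the same crab it was −4.10, lower in 2 of 3 crabs (exact sign-flip permutation test, two-sided p = 0.5). The 2 differences were themselves 17.0 ± 2.87 percentage points apart (SD, n = 3 crabs, same direction in 3 of 3 crabs, exact sign-flip permutation test, two-sided p = 0.25). The groups were not matched for gene-free sequence. With a promoter peak in all 3 libraries its median was 18 kb for the nearest genes and 7.35 kb for the eligible ones. Without a promoter peak it was 18 kb and 13.1 kb. The part of this imbalance in either difference was not tested.

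The median levels showed less than the shares. With a promoter peak in all 3 libraries they were 3.07, 2.80 and 2.01 FPKM for the nearest genes, against 3.04, 2.97 and 2.32 FPKM for the eligible genes, a log2(FPKM + 1) difference of −0.06 ± 0.08 (SD, n = 3 crabs, exact sign-flip permutation test, two-sided p = 0.5). That difference is within the spread between crabs, and its sign turned, to 0.34 with the EVM gene models alone, to 0.23 among genes with a read, to 0.17 with promoters of 1 kb on either side and to 0.03 without crab 2. At genes without a promoter peak the medians were 0.231, 0.263 and 0 FPKM for the nearest genes, against 0, 0.0280 and 0 FPKM for the eligible genes. The log2 difference of 0.20 ± 0.17 (SD, n = 3 crabs, exact sign-flip permutation test, two-sided p = 0.5) was 0 in crab 3, and it came to 0.13 without crab 1. With near regions, shared or not, promoter peaks and expression of the same crab it was 0.08. Where a promoter was open in 1 or 2 libraries, 37.6% of 619 nearest genes and 38.2% of 3088 eligible genes reached 1 FPKM in all 3 crabs.

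**Figure D3:**
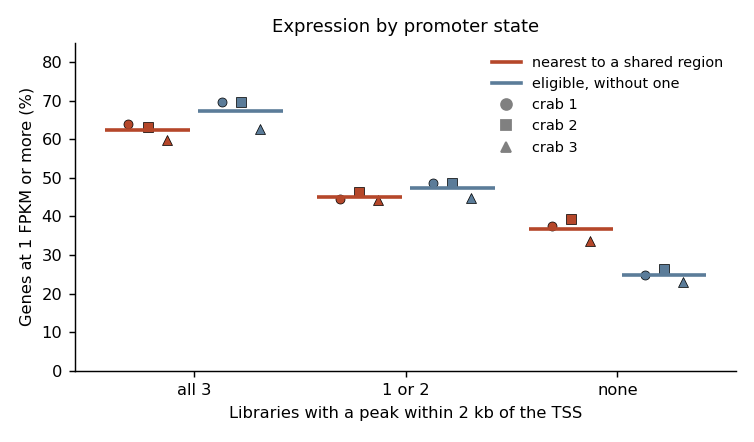
Percentage of genes at 1 FPKM or more (vertical axis, from 0) by the number of ATAC libraries with a peak within 2 kb of the TSS (horizontal axis), for genes nearest to a shared near region (left of each pair) and eligible genes without one (right of each pair). Points are crabs 1 to 3 and bars their means: without a promoter peak the genes nearest to a shared region lie higher in each crab, and with a promoter peak in all 3 libraries they lie lower.

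Expression was lower the farther the closest shared near region lay. Median levels were 1.20, 1.38 and 0.875 FPKM in crabs 1, 2 and 3 for 826 genes whose closest region lay at 2 to 5 kb. They were 0.898, 1.04 and 0.644 FPKM for 864 genes at 5 to 10 kb, and 0.338, 0.286 and 0.171 FPKM for 828 genes at 10 to 20 kb. The first group lay above the last by 0.76 ± 0.11 on the log2(FPKM + 1) scale (SD, n = 3 crabs, higher in 3 of 3 crabs, exact sign-flip permutation test, two-sided p = 0.25), or by 0.29 among genes with a read. Promoter openness did not follow the same order, since a promoter peak in all 3 libraries was found at 25.4%, 34.8% and 28.7% of these groups. A region can be far from its nearest TSS only where genes are sparse, and the part of gene spacing in this order was not tested.

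Genes with shared near regions on the upstream side alone were expressed more than those with regions on the downstream side alone. The medians were 1.39, 1.52 and 0.963 FPKM in crabs 1, 2 and 3 for 1735 upstream genes, against 0.0628, 0.101 and 0 FPKM for 641 downstream genes. This difference was 1.11 ± 0.12 on the log2(FPKM + 1) scale (SD, n = 3 crabs, higher in 3 of 3 crabs, exact sign-flip permutation test, two-sided p = 0.25). A gene can hold a downstream region within these distances only if its model is short, and in genes spanning up to 10 kb, a limit added after the data had been seen, the difference came to 0.57. In that subset the means over crabs of the medians were 0.536 FPKM for 953 upstream genes and 0.0279 FPKM for 590 downstream genes. Among eligible genes without a shared near region, those with space on the upstream side alone had medians of 0.495, 0.575 and 0.362 FPKM (7473 genes), against 1.04, 1.09 and 0.637 FPKM for those with space on the downstream side alone (2628 genes), the opposite order in 3 of 3 crabs. A further grouping took genes with space on a side whether or not they had space on the other. There the means over crabs of the medians were 0.165 FPKM for 12130 genes with space upstream and 0.0664 FPKM for 7113 genes with space downstream. The counts of both groupings do not add up under a single definition of space, so they differ in more than the genes with space on both sides. The order among these genes thus depended on how they were grouped. Regions on both sides were found at 142 genes, whose medians were 0.215, 0.109 and 0 FPKM.

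**Figure D4:**
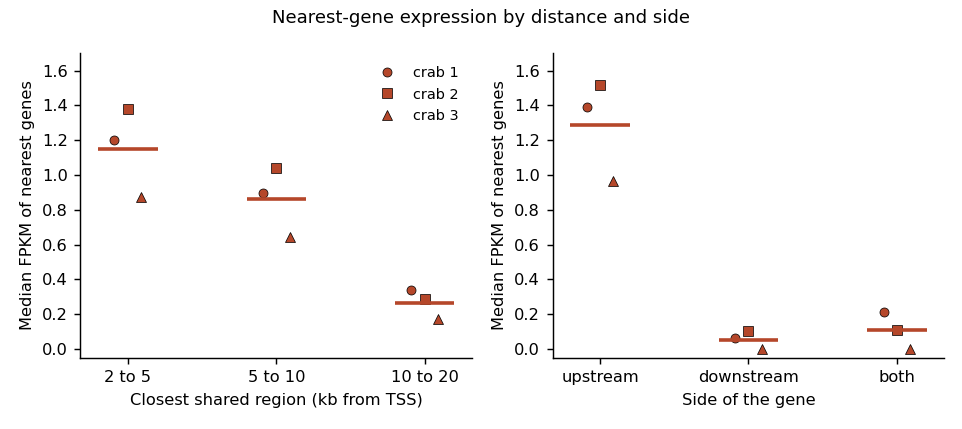
Median FPKM of the genes nearest to shared near regions (vertical axes) by the distance of the closest region in kb (left) and by the side of the gene on which its regions lay (right). Points are crabs 1 to 3 and bars their means, and genes with regions on the upstream side alone (1.39, 1.52 and 0.963 FPKM) lie above those with regions downstream or on both sides in each crab.

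Shared intergenic regions farther than 20 kb from any TSS, with the same fold limit, gave a further comparison. Genes nearest to a shared near region had medians of 0.767, 0.821 and 0.545 FPKM in crabs 1, 2 and 3, against 0.0488, 0.0799 and 0 FPKM for the 1328 genes nearest to a far region and to no shared near one. The medians differed by 0.71 ± 0.07 on the log2(FPKM + 1) scale (SD, n = 3 crabs, higher in 3 of 3 crabs, exact sign-flip permutation test, two-sided p = 0.25). At 1 FPKM or more in all 3 crabs were 38.4% of the near group and 26.7% of the far group. The difference was smaller for near-group genes with 18 kb or more of gene-free sequence, which had medians of 0.263, 0.262 and 0 FPKM, the same as the far group in crab 3, and of which 30.2% reached 1 FPKM in all 3 crabs. The part of gene spacing in this difference was not tested.

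The strength of a shared near region said little about the level of its gene. Across the 3501 regions Spearman rho of mean fold enrichment and mean log2(FPKM + 1) was −0.051, and within crabs 1, 2 and 3 it was −0.083, −0.142 and 0.054. It was −0.030 without crab 1 and −0.078 without crab 3. These points share libraries and, in part, genes. The 417 genes whose strongest region had a mean fold enrichment up to 3.50 had medians of 1.12, 1.18 and 0.823 FPKM, against 0.643, 0.605 and 0.363 FPKM for the 809 genes whose strongest region exceeded 5.47. Between these limits the order was not steady. Medians were 0.682, 0.816 and 0.536 FPKM for 585 genes with a strongest region up to 4.32, and 0.930, 0.878 and 0.660 FPKM for 707 genes above that.

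**Figure D5:**
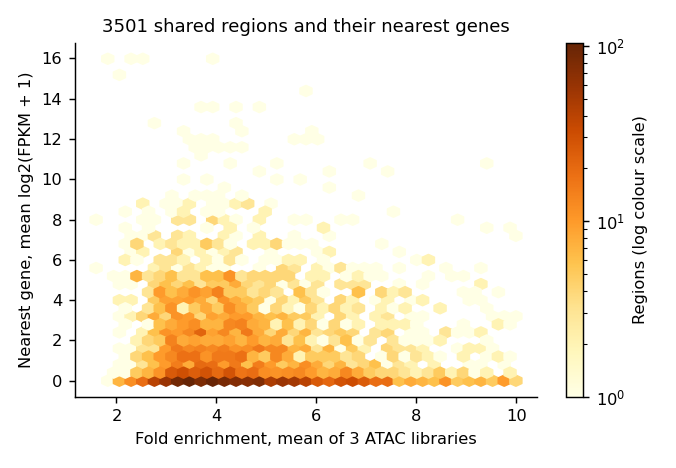
Mean log2(FPKM + 1) of the nearest gene (vertical axis) against the mean fold enrichment of the shared near region over 3 ATAC libraries (horizontal axis) for 3501 regions, as a density plot with a logarithmic colour scale. Most regions lie at fold enrichments between 3 and 6 whatever the level of their gene, and the densest row is that of genes at or near 0 FPKM (Spearman rho −0.051).

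The strongest shared near regions stood beside genes of very different levels. The highest mean, 9.99, was that of 640738 to 641512 on CM024112.1, which lay 13725 bases upstream of evm.TU.CM024112.1.32, a gene without a read. The region 4898799 to 4899518 on CM024161.1, with fold enrichments of 10.2, 7.23 and 12.5, lay 9071 bases upstream of evm.TU.CM024161.1.132, with 155, 98.6 and 477 FPKM and an open promoter in all 3 libraries. Next came 6749598 to 6749944 on CM024107.1, with 7.72, 7.17 and 15.0, whose gene evm.TU.CM024107.1.297 had 0, 7 and 0 reads. The region 5334363 to 5334945 on CM024123.1, with 9.5, 7.4 and 13 in crabs 1, 2 and 3, lay 13221 bases upstream of evm.TU.CM024123.1.185, with 11.7, 9.07 and 4.51 FPKM. The other 2 of the strongest 6, at 9547282 to 9547935 on CM024128.1 and 409746 to 410131 on CM024125.1, had genes with 10 reads in all and with none. The summits of these 6 regions lay within 17 to 134 bases of each other among crabs.

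One region was the rule, and 1869 of the 2518 genes had a single one. There were 436 genes with 2, 133 with 3, and 51, 20 and 8 with 4, 5 and 6, so that 649 genes (25.8%) had at least 2. The mean over crabs of the median FPKM was 0.623 ± 0.137 for genes with 1 region, 1.04 ± 0.154 with 2, 0.870 ± 0.119 with 3 and 0.704 ± 0.151 with 4 or more (SD, n = 3 crabs). Levels thus did not climb steadily with the number of regions. The share with a promoter open in all 3 did, at 27.4%, 32.3%, 40.6% and 51.2% in the same order.

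The gene with the most shared near regions, 9, was evm.TU.CM024114.1.45, on the minus strand at 2272372 to 2293386 on CM024114.1. All 9 lay upstream, from 3447 to 17447 bases from the TSS, between 2296833 and 2311971. Their mean fold enrichments ran from 2.92 to 5.57, highest in the outermost region, and the promoter was open in all 3 libraries. The gene itself was barely read, with 3, 8 and 2 reads and 1.14, 2.27 and 1.38 FPKM in crabs 1, 2 and 3. The length counted for it is 374 bases, over a span of 21015 bases.

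With 6 regions each, 8 genes came next, and their levels were mixed. There were 4 without a read in any library, 2 at 1 FPKM or more in all 3 crabs and 2 in between. The highest of the 8 was evm.TU.CM024136.1.1, with 24.0, 10.6 and 156.7 FPKM in crabs 1, 2 and 3, and evm.TU.CM024143.1.286 had 0.918, 0.913 and 9.96 FPKM, both named after their values were seen. Among those without a read was evm.TU.CM024135.1.209. The gene evm.TU.CM024099.1.677, at 23573989 to 23574681 on CM024099.1, had 4 regions upstream and 2 downstream, with 2.42, 1.58 and 3.82 FPKM from 8, 7 and 7 reads. The gene evm.TU.CM024130.1.128, at 5953513 to 5954040 on CM024130.1, had its regions on both sides and no read in any library. A locus added by the authors, at 75266 to 81559 on CM024135.1, had 2 reads in crab 1 and none in the others, beside a promoter open in all 3 libraries. On the same sequence evm.TU.CM024135.1.5, at 405136 to 405621, had no read and no promoter peak. A further added locus without a read, at 521657 to 524912 on CM024135.1, also had 6 regions, with mean fold enrichments from 1.94 to 4.32, and its promoter was open in all 3 libraries. With a model of 332 bases, 3 reads, the limit that a count of 0 allows, would stand for a higher FPKM than in a gene of 1 kb, so low expression of such short models was not detectable at this depth.

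The 8 genes described next had the highest mean FPKM among the genes nearest to a shared near region. How often the most expressed genes of the muscle had such a region was not counted. The mean fold enrichments of their regions ran from 1.72 to 6.03, on either side of the median of 4.32 over all shared near regions. The highest was evm.TU.CM024117.1.149, at 5214593 to 5215193 on CM024117.1, with 54258, 49923 and 100513 FPKM in the 3 crabs. Scaled by plain read totals it had 56321, 63610 and 49338 FPKM. It had 4 regions upstream, at 3305, 4111, 6293 and 14173 bases from the TSS, with mean fold enrichments of 1.72, 2.53, 3.93 and 2.40, and its promoter was open in 2 libraries. The strongest of them, 5207679 to 5208300, had nearly the same value in each crab, 3.92, 3.83 and 4.04.

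The gene evm.TU.CM024149.1.29, at 588468 to 601171 on CM024149.1, had 34584, 27667 and 44472 FPKM and 1 region, 1076 bases past its end, with a mean fold enrichment of 2.11. The gene evm.TU.CM024154.1.286, spanning 8892406 to 8959396 on CM024154.1, had 34800, 26488 and 15869 FPKM and 1 region of 1611 bases, 3807 bases upstream, with fold enrichments of 4.62, 5.96 and 6.77. Here the crab with the strongest region had the lowest expression. The gene evm.TU.CM024164.1.214, at 5850357 to 5852032 on CM024164.1, had 9200, 5567 and 45436 FPKM and a region 506 bases past its end.

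Of the next 4, evm.TU.CM024098.1.339 on CM024098.1 had 9495, 8774 and 25554 FPKM and 3 regions upstream, from 5801 to 15491 bases away, with means of 3.78 to 4.86. The gene evm.TU.CM024136.1.421 on CM024136.1 had 3943, 5442 and 13182 FPKM and 2 regions, the closer one with fold enrichments of 2.51, 5.44 and 4.90. The gene evm.TU.CM024114.1.113 on CM024114.1 had 3432, 2109 and 15491 FPKM and 2 regions with means of 6.03 and 5.82, the strongest of this set. Last, evm.TU.CM024134.1.398 on CM024134.1 had 3450, 3706 and 12434 FPKM and 1 region 2838 bases upstream. In 7 of these 8 genes FPKM was highest in crab 3 and in 1 it was lowest there. On plain read totals crab 3 was highest in 4 of the 8.

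Among the nearest genes without a promoter peak in any library, the 4 of highest mean FPKM were also examined. How often highly expressed genes without a promoter peak had a shared near region was not counted. The highest was evm.TU.CM024158.1.527, at 20961490 to 20977845 on CM024158.1, with 995, 836 and 2065 FPKM. Its region, 20978772 to 20979240, lay 927 bases past the gene end and had fold enrichments of 6.2, 5.0 and 10.9. The gene evm.TU.CM024138.1.97, at 3526049 to 3529075 on CM024138.1, had 1109, 849 and 1716 FPKM and a region of 1114 bases that lay 1448 bases past its end, with 3.09, 2.61 and 4.28. On the upstream side, evm.TU.CM024102.1.292 on CM024102.1 had 700, 619 and 1129 FPKM and a region 11584 bases away, with 6.31, 5.27 and 7.45. Finally, evm.TU.CM024162.1.54, at 2388824 to 2398388 on CM024162.1, had 264, 456 and 950 FPKM and 3 regions upstream, at 2288, 6264 and 18278 bases, with means of 2.61, 4.28 and 4.06. In these 4 genes, and in the regions next to them, FPKM and fold enrichment were highest in crab 3 with no exception. On plain read totals crab 3 had the highest level in none of them.

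Genes nearest to shared near regions varied among crabs about as often as other genes. Of those with a mean of at least 1 FPKM, 15.7% ranged over at least 4-fold between the lowest and highest crab on the log2(FPKM + 1) scale, against 15.2% of eligible genes without a region and a background of 14.4%. The 3 widest ranges at a mean of 10 FPKM or more all lay on CM024135.1. The gene evm.TU.CM024135.1.814, at 27521470 to 27522306, had 1.32, 4.93 and 465 FPKM from 6, 30 and 1167 reads, and its region, 5158 bases upstream, had fold enrichments of 2.69, 2.98 and 3.65. The gene evm.TU.CM024135.1.20, at 1414877 to 1424255, had 219 reads in crab 1, none in crab 2 and 1 in crab 3, beside a region with 2.32, 2.65 and 2.44. The gene evm.TU.CM024135.1.536, at 18806316 to 18806552, had 97 reads in crab 2 and none in the others, beside a region with 2.45, 2.81 and 3.07. In these 3 genes expression ranged widely while the region was called in each crab at a similar fold enrichment.

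Over all 3501 regions, differences between crabs in fold enrichment and in the level of the nearest gene were close to uncorrelated. The correlation across regions of both deviations from the mean over crabs was −0.001, 0.006 and −0.037 for the same-numbered libraries of crabs 1, 2 and 3. Their mean of −0.011 was not the highest of the 6 ways of pairing the libraries (exact permutation test, one-sided p = 0.667, smallest possible 0.167), and it was 0.014 without crab 3.

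Lists of genes whose expression and chromatin changed between molting stages were available from the study. Of the listed genes 904 were measured here. Of the 663 that were eligible, 170 (25.6%) had a shared near region, 260 regions in all. The background was 14.1% of all eligible or nearest genes and 16.8% of those with a mean of at least 1 FPKM. These lists are not independent of open chromatin, because the study required a changed ATAC peak assigned to the gene at any distance, and its comparisons with inter-molt used inter-molt libraries. Between the pre-molt and the molt stage 36 genes labelled down-regulated (31.0% of the eligible ones) and 74 of 242 eligible genes labelled up-regulated (30.6%) had a region. Between the post-molt and the inter-molt stage, 68 of 334 eligible genes (20.4%) labelled down-regulated and 8 of 29 (27.6%) labelled up-regulated had one.

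G protein-coupled receptors, cell-surface proteins that pass signals of hormones and transmitters into the cell, were a theme of the study. Among 8 receptor genes, 7 were eligible and 1 of these (14.3%) had a shared near region, close to the background of 14.1%. Of 3 further candidates, 2 were eligible and 1 had a region. The gene called Kpna6, evm.TU.CM024137.1.63 at 2656532 to 2657725 on CM024137.1, shares its name with an importin of nuclear transport. Its region, 2647566 to 2647894, lay 8638 bases upstream with fold enrichments of 8.51, 7.21 and 6.24 in crabs 1, 2 and 3 and summits within 7 bases, and the promoter was open in all 3 libraries. The gene had 5, 2 and 2 reads. HTR4, named after a serotonin receptor, is evm.TU.CM024104.1.157 at 6324039 to 6377507 on CM024104.1. Its region, 6307783 to 6308339, lay 15700 bases upstream with 5.47, 4.28 and 9.05 and summits within 2 bases. The gene had 3, 0 and 1 reads and no promoter peak. Both regions were thus above the median strength beside genes at the limit of detection.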

How the data were processed

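Muscle of 3 inter-molt crabs was measured by RNA-seq and ATAC-seq. The authors aligned RNA reads with HISAT2 2.0.5, counted them per gene with featureCounts 1.5.0-p3 (versions from the submitters' processing notes) and deposited FPKM values. Multiplying FPKM by the deposited gene length gave whole multiples of 1 step per library, from which the reads per gene were taken, and no count model was fitted. For ATAC-seq the authors aligned with BWA and called peaks per library with MACS2. The deposited columns used were position, fold enrichment (a ratio over local background), −log10 q and the position of the summit. The deposited −log10 p and score were not used. The sources used here do not state whether cut sites were shifted. ATAC read totals, and hence depth, are unknown, and strand use in the RNA counting was not stated.

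Peaks overlapping by at least 1 base were merged, with the highest fold enrichment per library. Distance ran from the region edge to the nearest TSS of 28671 gene models (21314 EVM models and 7357 loci added by the authors). Gene-free space was sampled every 50 bases, and eligible genes had at least 1 kb of it over 2 kb and up to 20 kb from the TSS. Medians of log2(FPKM + 1) were compared per crab, with an exact two-sided sign-flip permutation test over 3 crabs and no test across genes or regions. Adjacent or near-identical gene copies may share reads. The library numbers pair the assays, since the methods state that each crab's muscle was divided, although the peak names of the third ATAC list carry another number. Deviations of same-numbered libraries correlated at −0.001, 0.006 and −0.037 across regions.

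The members and lists were chosen with earlier results of these data known. Named regions were the 6 strongest, those at the limits and the 4 with the largest ratio among crabs. Named genes were the 5 with the most regions, the 8 of highest mean FPKM, the 4 highest without a promoter peak, 3 without a read, the 3 of widest range and receptors with a region. The 2 regions of lowest fold enrichment were added after the values were seen. No gene identifier matched the RefSeq table (0 matches), and no columns of other series were present (0). The functions were tested on simulated data. Computations used numpy 2.4.6 and pandas 2.3.3 under python 3.11.15.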

Additional observations from a re-analysis of the deposited data

How the results depend on the processing

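Of 181 recomputed values, 175 were counted as the same, 5 reversed and 1 moved. For the differences and the pairing of libraries, the same means an unchanged direction and side of the threshold, which no p could pass. For the number of regions it means a count within a fixed ratio of the main one. For rho of fold enrichment and level it means a value within 1 SD over crabs (0.10) of the main one. The number of shared near regions was 2033 with peaks at a −log10 q of at least 5. The level difference at genes with open promoters reversed to 0.34 with EVM models only, 0.23 among genes with a read and 0.17 with promoters of 1 kb. Leaving out each crab in turn gave −0.22 to 0.034 for it (0.034 without crab 2), −0.026 to 0.014 for the mean correlation of paired libraries, and 4291 to 4971 regions. The other differences kept their sign in each such run, from 0.27 to 0.51 for genes nearest to a shared near region, 0.23 to 0.48 for shared regions against those open in 1 library, 0.13 to 0.20 at closed promoters, 0.72 to 0.80 for distance, 0.96 to 1.07 for side and 0.63 to 0.78 against far regions. The share at 1 FPKM or more differed by 5.99 to 10.2 percentage points. The replicate block set the expression of each crab against the near regions and promoter peaks of its own library, shared or not. Its groups of genes therefore differ from those of the shared regions. With it the difference for nearest genes was 0.26 and that of the share 6.13 percentage points, and no mean changed its sign. At open promoters the share was lower in 2 of 3 crabs, with a mean of −4.10 percentage points. Level differences depend on the pseudocount: with 0.1 in place of 1 the first became 1.17. With EVM models only it was 0.67, and the difference against far regions was 1.15. Among genes with a read the distance difference was 0.29, the side difference 0.73 and that against far regions 0.45. The difference at closed promoters was 0.08 with the block, 0.66 among genes with a read and 1.08 with a pseudocount of 0.1. Upstream density exceeded downstream density by 0.18 on the log2 scale with peaks at a −log10 q of at least 5, and rho of fold enrichment and level was then −0.14. Within classes of gene-free length the difference for nearest genes was 0.77, and the side difference in genes spanning up to 10 kb was 0.57, both added after seeing the data. The limits are 3 crabs, few reads at the median gene, a scaling of crab 3 by a method not stated, unnamed gene models, unknown ATAC depth, and assignment to the nearest TSS.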

Other observations

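The sequence CM024135.1 held 125 shared near regions with 66 nearest genes. Of its 27 nearest genes with a mean of at least 1 FPKM, 5 (18.5%) ranged over at least 4-fold among crabs, against 13.8% of all 305 genes of that mean on the sequence.

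The 2 shared near regions of lowest fold enrichment, chosen after their values were seen, lay close together on CM024136.1. The region 13065971 to 13066621 had fold enrichments of 1.49, 1.57 and 1.76 in crabs 1, 2 and 3 and lay 4455 bases upstream of evm.TU.CM024136.1.358, with 596, 486 and 77.3 FPKM. The region 13079371 to 13080627 had 1.66, 1.55 and 1.57 and lay 626 bases past the end of an added locus with 138, 79.2 and 9.64 FPKM. Both genes were lowest in crab 3, with 569 and 121 reads there, while the regions were called at nearly the same fold enrichment in each crab.

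The deposited lists of genes between the other pairs of stages were short. Between the inter-molt and the pre-molt stage 3 of 4 eligible genes labelled down-regulated and 6 of 11 labelled up-regulated had a shared near region, and between the molt and the post-molt stage 10 of 20 and 7 of 51 (13.7%) had one, beside a background of 14.1% of all eligible or nearest genes and 16.8% of those with a mean of at least 1 FPKM.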
